A study of Mus musculus with 2 samples.

Results

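The genes described here are the 6 microRNA (miRNA) genes of the mouse miR-23-27-24 clusters, out of 1973 miRNA genes counted. They were chosen by name: Mir23a, Mir27a and Mir24-2 on chromosome 8, and their paralogs Mir23b, Mir27b and Mir24-1 on chromosome 13. Counts were read for 5 of them, and Mir24-1 was not analysed here for lack of a count of its own. The samples were kidneys of healthy mouse embryos of strain B6NCrl at 15.5 days of development, pooled over both sexes. The labels give 1 group of 2 biological replicates, each 1 library, which pooled 78 embryos (replicate 1) and 62 embryos (replicate 2). Small RNA of under 30 nt was sequenced, and 7434182 and 5863293 reads lay within a miRNA gene on the gene's own strand. With no second age, tissue or treatment, the data show how strongly each gene was read in this organ and how closely the pools match, and no contrast between conditions was made.

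miRNAs are cut from hairpin precursors and guide the silencing machinery to messenger RNAs, mainly through the seed, bases 2 to 8 from their 5′ end. A miR-23-27-24 cluster is a short run of a miR-23, a miR-27 and a miR-24 hairpin that can be cut from a shared primary transcript, and vertebrates carry a pair of such clusters. The miRNAs are best known from endothelial cells, where they act in vessel growth, and miR-27 is also known for restraining fat cell formation and miR-24 for slowing the cell cycle.

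The sequences show where the paralogs can and cannot be told apart. The mature miRNAs below come from RefSeq on GRCm38.p6, in which all 6 genes were found, and are written 5′ to 3′ with the seed in capitals. miR-23b-3p is named only.
miR-23a-3p: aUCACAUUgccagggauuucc
miR-23a-5p: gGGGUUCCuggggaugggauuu
miR-23b-5p: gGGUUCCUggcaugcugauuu
miR-27a-3p: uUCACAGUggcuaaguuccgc
miR-27b-3p: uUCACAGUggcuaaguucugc
miR-24-3p: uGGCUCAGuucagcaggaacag
miR-24-2-5p: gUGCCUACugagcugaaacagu
miR-24-1-5p: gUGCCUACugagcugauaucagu

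miR-27a-3p and miR-27b-3p share a seed and their first 18 bases, and differ by the single substitution C19U, counted from the 5′ end of miR-27a-3p. miR-24-3p is the same sequence at both loci, whereas the 5p products miR-24-2-5p and miR-24-1-5p share their first 16 bases and then part. The 5p products of the miR-23 pair share a longest stretch of 10 bases. Over whole hairpins, the longest shared stretch was 20 bases for Mir23a with Mir23b, 20 for Mir27a with Mir27b and 28 for Mir24-2 with Mir24-1. Reads that match several loci were set apart in the deposited counts, at 27.1% of the first and 26.6% of the second library. A read of miR-24-3p, or of the first 18 bases of a miR-27 3p product, fits both loci, and so does a short read inside the 20 bases that the miR-23 hairpins share. Counts of all members can therefore be too low whatever their level, but not for the same reads. Full-length reads of miR-24-3p fit both loci, so they could not enter the count of Mir24-2. miR-23a-3p, of 21 bases, is longer than the 20 that the miR-23 hairpins share. Full-length reads of the miR-27 3p products differ at C19U. How many such reads there were was not tested.

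Because each count covers a whole hairpin, the hairpins of the miR-27 and miR-24 genes are shown with the 3p miRNA in capitals.
Mir27a: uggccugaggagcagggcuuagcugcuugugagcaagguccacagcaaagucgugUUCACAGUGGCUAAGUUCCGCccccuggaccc
Mir27b: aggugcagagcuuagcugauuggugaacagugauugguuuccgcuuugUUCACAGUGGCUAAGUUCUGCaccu
Mir24-2: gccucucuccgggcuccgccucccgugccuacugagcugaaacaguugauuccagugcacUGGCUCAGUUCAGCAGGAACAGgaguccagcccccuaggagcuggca
Mir24-1: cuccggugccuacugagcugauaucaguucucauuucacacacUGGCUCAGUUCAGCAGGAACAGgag
The hairpins run from 68 nt (Mir24-1) to 107 nt (Mir24-2), and a count adds up both arms.

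The chromosome 8 genes lie on the plus strand of mm10 (GRCm38) within 404 nt. Mir23a (ENSMUSG00000065611.1) spans chr8:84208518-84208592, Mir27a (ENSMUSG00000065444.1) chr8:84208672-84208758 and Mir24-2 (ENSMUSG00000065541.1) chr8:84208815-84208921. GENCODE M21 places Mir23a and Mir27a in no other gene, while Mir24-2 overlaps the edge of an exon of the long non-coding RNA Gm26532 on its strand and Mir3074-2 on the other strand. The chromosome 13 genes lie on the plus strand within 792 nt, in the protein-coding gene 2010111I01Rik. Mir23b (ENSMUSG00000065599) is intronic to it at chr13:63300484-63300557. Mir27b (ENSMUSG00000065475) at chr13:63300712-63300784 and Mir24-1 (ENSMUSG00000105904) at chr13:63301208-63301275 overlap an exon of at least 1 of its transcripts. All 3 also lie within an intron of Fancc on the other strand, and Mir24-1 is covered there by Mir3074-1. The identifiers of Mir23b and Mir27b carry another version in the counted annotation than in M21, so the counted bounds can differ from those given.

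The miR-23 genes were by far the most read members. Mir23b had 154028 reads in replicate 1 and 131448 in replicate 2, or 20719 and 22419 CPM (reads per 1000000 own-strand gene reads). Its mean was 21569 ± 1202 CPM (SD, n = 2), or 2.16% ± 0.120 of all own-strand gene reads, and it ranked 14 in either library. Mir23a had 76232 and 61281 reads, or 10254 and 10452 CPM, with a mean of 10353 ± 139.6 CPM (SD, n = 2) and rank 20. The levels of this pair did not overlap: Mir23b exceeded Mir23a by 2.02 times in replicate 1 (95% exact binomial interval 2.00 to 2.04) and by 2.14 times in replicate 2 (2.12 to 2.17). Per nucleotide of hairpin the ratios were 2.05 and 2.17. Together the miR-23 genes held 3.19% ± 0.134 of reads. Binomial intervals here and below cover counting error only.

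The miR-27 genes were read less, and more unequally. Mir27b had 12214 and 9620 reads, which gave 1643 and 1641 CPM, a mean of 1642 ± 1.58 CPM (SD, n = 2) and rank 67. Mir27a had 1129 and 985 reads, or 152 and 168 CPM, with a mean of 159.9 ± 11.4 CPM (SD, n = 2) and rank 155. The chromosome 13 copy was thus higher in both pools, by 10.8 times in replicate 1 (95% exact binomial interval 10.2 to 11.5) and 9.77 times in replicate 2 (9.15 to 10.4). Per nucleotide of hairpin the ratios were 12.9 and 11.6. On the log2 scale the ratio was 3.36 ± 0.10 for the miR-27 pair against 1.06 ± 0.06 for the miR-23 pair (SD, n = 2 each), a gap wider than the spread between pools. Taken within each library, the gap was 2.42 and 2.19. It was not tested, and an exact two-sided test of signs over 2 libraries cannot go below p = 0.5. The miR-27 genes summed to 0.180% ± 0.000982 of reads.

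By counted reads, Mir24-2 was the lowest of the measured members. It had 1048 and 887 reads, or 141 and 151 CPM, with a mean of 146 ± 7.29 CPM (SD, n = 2) and rank 159. Full-length reads of the mature miRNA that is the same at both miR-24 loci could not enter the count of Mir24-2. The level of Mir24-2 can therefore be too low, and its place among the members holds for counted reads only. Mir24-2 stood just under Mir27a. Their ranges over the pools did not overlap, but in replicate 1 the ratio of Mir27a to Mir24-2 was 1.08 with a counting interval of 0.990 to 1.17, which takes in equality. In replicate 2 it was 1.11 (1.01 to 1.22). By level the order was Mir23b, Mir23a, Mir27b, Mir27a and Mir24-2 in both libraries, and it was the same per nucleotide of hairpin, at 291, 138, 22.5, 1.84 and 1.37 CPM per nt.

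**Figure D1:**
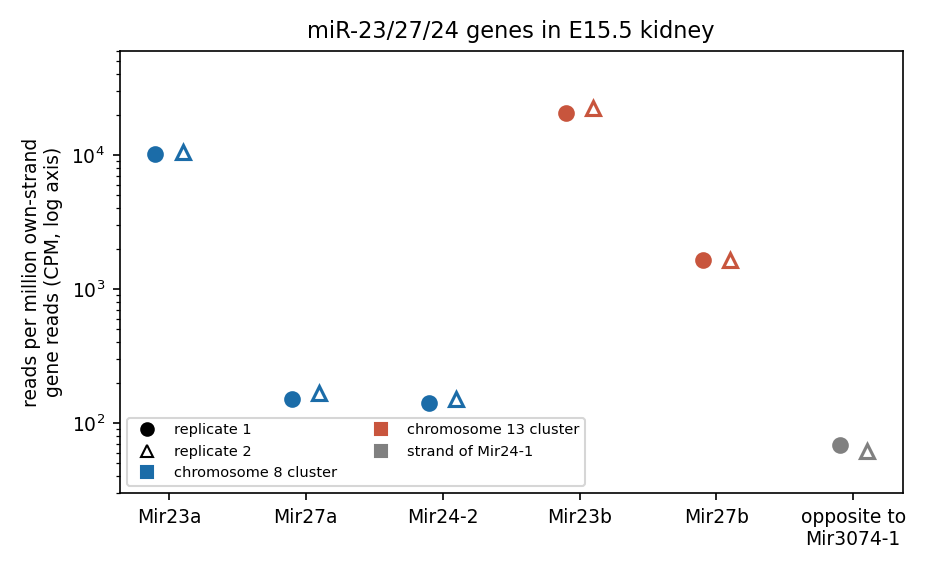
Level of each measured gene in CPM (log axis), with circles for replicate 1 and triangles for replicate 2, blue for chromosome 8 and red for chromosome 13; grey marks reads opposite to Mir3074-1, on the strand of Mir24-1. The miR-23 genes lie between 10254 and 22419 CPM, and Mir27b sits 10.8 and 9.77 times above Mir27a.

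Reads at the Mir24-1 locus can be seen only through the antisense gene Mir3074-1, whose span covers Mir24-1. miR-3074-5p is the reverse complement of miR-24-3p over 20 bases and is the same at both loci.
miR-3074-5p: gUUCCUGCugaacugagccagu
Mir3074-1 had 538 and 389 reads on its own strand, with a mean of 69.4 ± 4.26 CPM (SD, n = 2). On the opposite strand, which is that of Mir24-1, it had 514 and 363 reads, with a mean of 65.5 ± 5.11 CPM (SD, n = 2). Whether those reads came from Mir24-1 was not tested. Reads of Mir24-2 were 2.04 and 2.44 times as many as these. Full-length reads of miR-24-3p fit both loci and could enter neither count. Likewise, full-length reads of miR-3074-5p could not enter the own-strand count of Mir3074-1. Opposite to Mir24-2, where Mir3074-2 lies, there were 1 and 0 reads. Mir3074-2 itself was not analysed here.

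As clusters, the chromosome 13 genes held more reads than the chromosome 8 genes. Mir23b and Mir27b summed to 2.24% (replicate 1) and 2.41% (replicate 2) of reads, and Mir23a, Mir27a and Mir24-2 to 1.05% and 1.08%. By counted reads, these sums ranked 5 and 13 among 104 groups of miRNA genes that lie within 10 kb of each other on 1 strand. The places were the same in either library. The chromosome 13 sum exceeded the chromosome 8 sum by 2.12 and 2.23 times, a log2 ratio of 1.12 ± 0.05 (SD, n = 2), although it lacks Mir24-1. The 5 genes together held 3.39% ± 0.136 of reads.

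Each cluster was read mostly from its first hairpin, that of miR-23. Mir23a took 97.2% and 97.0% of the chromosome 8 reads, leaving 1.44% and 1.56% to Mir27a and 1.34% and 1.40% to Mir24-2. Mir23b took 92.7% and 93.2% of the chromosome 13 reads, leaving 7.35% and 6.82% to Mir27b. Mir23a was read 67.5 and 62.2 times as often as Mir27a, which begins 79 nt downstream of it. Mir23b was read 12.6 and 13.7 times as often as Mir27b, 154 nt downstream. Reads with several matching loci are in none of these shares, and by the shared stretches above they can be reads of any of the members, the miR-23 genes included.

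**Figure D2:**
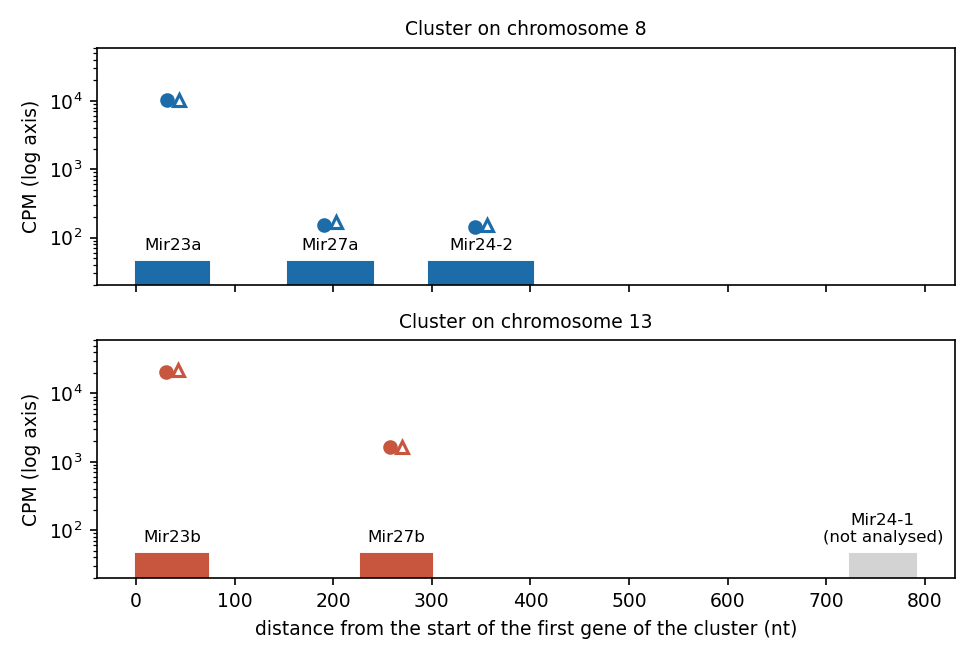
Hairpins of each cluster drawn to scale (boxes) by distance in nt from the start of its first gene, with CPM on a log axis (circles, replicate 1; triangles, replicate 2). The highest points stand over Mir23a and Mir23b, and Mir24-1 (grey box) was not analysed.

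Among all miRNA genes, the members spread from the 20 most read genes to the middle of the detected range, where 394 genes reached 1 CPM in both libraries. Reads with several matching loci enter no rank. Genes with a product shared between loci can thus stand too low, and the ranks hold for counted reads only. Mir23b lay below Mir130a, at 24333 ± 2437 CPM, and above Mir30e, at 17235 ± 3754 CPM (SD, n = 2 each), in the same order in either library. Mir23a stood above Mir93 in both libraries and below Mir30a in replicate 2 only. The places of Mir27b, between Mir203 and Mir708, of Mir27a, between Mir598 and Mir192, and of Mir24-2, between Mir185 and Mir328, changed between the libraries. With 1 group, no likeness of pattern across conditions could be measured.

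**Figure D3:**
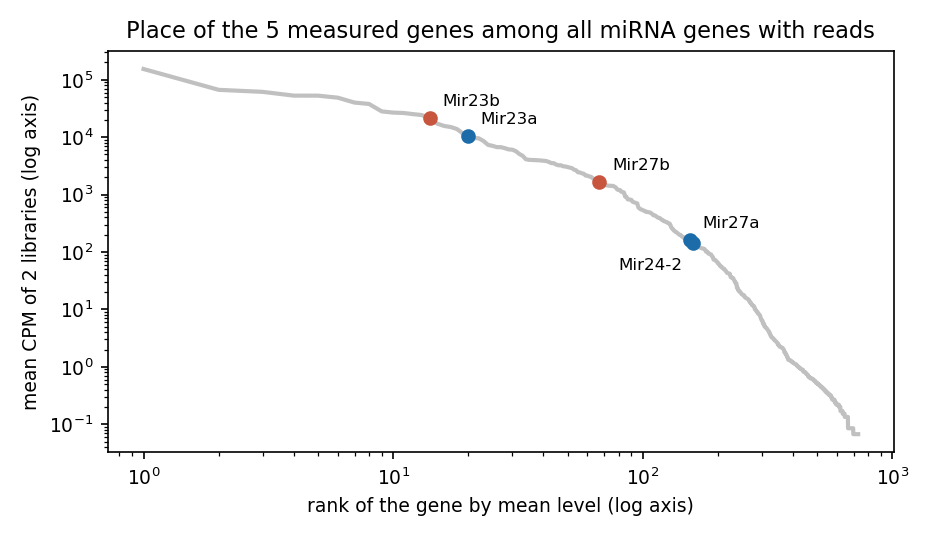
Mean CPM of the 2 libraries against rank for miRNA genes with reads (grey line, both axes log), with the members marked in blue (chromosome 8) and red (chromosome 13). By counted reads, Mir23b and Mir23a are at ranks 14 and 20, Mir27b at 67, and Mir27a and Mir24-2 at 155 and 159.

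The pools gave close values for every measured member. The log2 ratio of replicate 2 over replicate 1 was 0.11 for Mir23b (95% exact binomial interval 0.10 to 0.12), 0.03 for Mir23a (0.01 to 0.04) and -0.00196 for Mir27b (-0.04 to 0.04). It was 0.15 for Mir27a (0.02 to 0.27) and 0.10 for Mir24-2 (-0.03 to 0.23). None of the 5 passed a 1.5-fold difference in either direction, against 15.9% of the 264 genes averaging 100 or more reads. With so few members, 0 is near what that share gives. The median absolute log2 ratio of those 264 genes was 0.25, above the value of each of the 5. Of the 42 genes past the fold, 39 were higher in replicate 2 and 3 lower, and the median log2 ratio of the 264 was 0.13. Neither that share nor the median absolute ratio was recomputed under another scaling, so both can include a shift between the libraries. The sign of the small ratios of the members rests on the scaling: TMM and DESeq2 size factors moved each by -0.13 and -0.16. That left only Mir27a above 0 with TMM and none of the 5 with DESeq2.

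**Figure D4:**
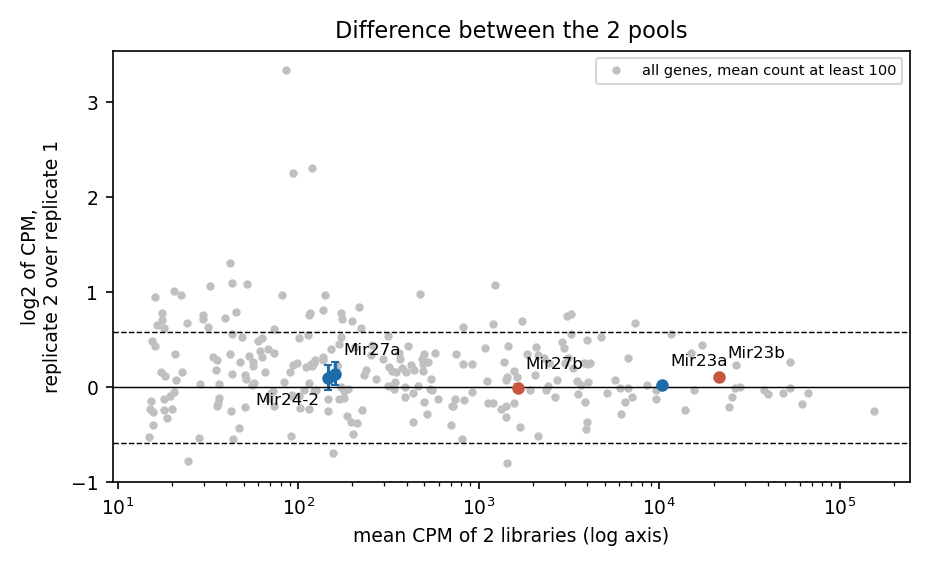
Log2 ratio of replicate 2 over replicate 1 against mean CPM (log axis) for genes averaging 100 or more reads (grey), with the members in color, error bars for 95% binomial intervals and dashed lines at 1.5-fold. All 5 members lie between the dashed lines.

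Few other miRNAs carry the seeds of the miR-27 3p and miR-24 products. miR-23b-3p is missing from the RefSeq table used, so sharing of the miR-23 3p seed is not described. The miR-27 seed UCACAGU stands in no other mature miRNA of the RefSeq table, but miR-128-3p holds the same 7 bases shifted by 1, and its seed, CACAGUG, is marked here.
miR-128-3p: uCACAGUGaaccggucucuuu
Its genes were read less than the miR-27 genes, Mir128-1 at 482 and 487 reads and Mir128-2 at 133 and 80. Both copies give miR-128-3p, so their counts can be too low as well. The miR-24-3p seed GGCUCAG also stands in miR-6413, miR-6410, miR-6369 and miR-5124b, whose genes all had 0 reads in both libraries, which leaves room for levels of 0.404 and 0.512 CPM in the pools. The miR-24 5p seed UGCCUAC stands shifted by 1 in miR-1271-3p, whose gene Gm24195 also had 0 reads in both libraries.

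Set beside other duplicated clusters, the miR-23-27-24 clusters, at a ratio of 2.12 and 2.23, were not the most unequal. That they were not the most even in both libraries rests on the miR-29 clusters, given last. Those were picked after their values were seen. The ratios given first were higher in both libraries. The Mir181a-1 and Mir181a-2 clusters, set against each other next, were closer to equal in replicate 2 only. The miR-17-92 cluster, which promotes proliferation, exceeded miR-106b-25 by 2.62 and 2.75 times and miR-106a-363 by 50.05 and 51.1 times. The epithelial miR-200b cluster exceeded the miR-200c cluster by 4.50 and 3.68 times. Mir181c and Mir181d together exceeded the Mir181a-1 cluster by 3.82 and 6.39 times and the Mir181a-2 cluster by 9.19 and 6.16 times. The Mir181a-1 and Mir181a-2 clusters held 0.185% and 0.0767% of reads in replicate 1, but 0.108% and 0.112% in replicate 2. Mir29b-2 with Mir29c and Mir29a with Mir29b-1 were closer in both libraries, at 391 and 367 reads in replicate 1 and 359 and 315 in replicate 2. For Mir181a, Mir181b, Mir92, Mir19b and Mir29b, both copies share a mature sequence. Full-length reads of those sequences fit both loci, so the sums of the clusters that hold them can be too low. The ratios above thus hold for counted reads only. The share of the leading gene was 97.1% in the chromosome 8 cluster and 92.9% in the chromosome 13 cluster. Both lay near the top of the range of 37.8% to 98.6% over the 8 other clusters of the miR-17, miR-200 and miR-181 families. Those clusters hold from 2 to 6 genes, so the shares are not fully alike. The chromosome 13 share lacks Mir24-1 and the chromosome 8 share lacks full-length miR-24-3p reads, so both can be too high. None of these comparisons was tested.

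**Figure D5:**
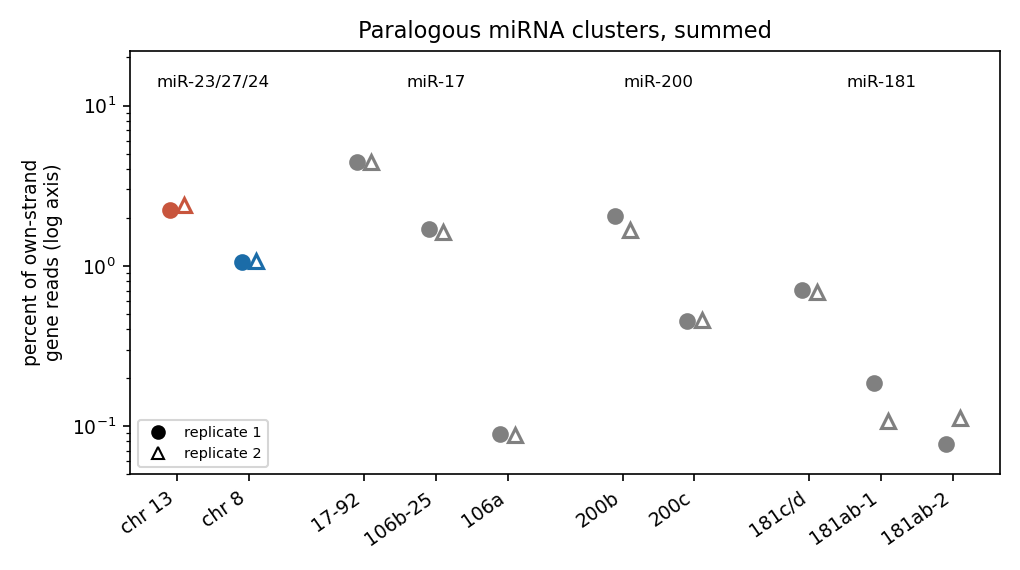
Summed share of own-strand gene reads in percent (log axis) for the miR-23/27/24 clusters (red, chromosome 13; blue, chromosome 8) and for other families of paralogous clusters (grey), with circles for replicate 1 and triangles for replicate 2. The chromosome 13 cluster lies at 2.24% and 2.41%, the chromosome 8 cluster at 1.05% and 1.08%.

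Other miRNAs with an identical product at another locus were read at levels on either side of Mir24-2. In each of 16 such gene pairs a mature sequence was the same at both loci, and 14 of the lower and 10 of the higher copies (87.5% and 62.5%) stood below Mir24-2. Of all 1973 genes 91.9% stood below it, and of the 394 genes at 1 CPM or more in both libraries 59.6%. The lower copy of a pair is lower by the way it was picked, and nothing particular to such pairs is read from these shares. The copies differed by 1.07 to 47.9 times within a library. The pairs with the highest sums were Mir92-1, at 3334 ± 335 CPM, with Mir92-2, at 137 ± 19.5 CPM, and Mir196a-2, at 2891 ± 672 CPM, with Mir196a-1, at 63.2 ± 9.93 CPM. Mir16-1 and Mir16-2, which restrain the cell cycle, followed at 1576 ± 123 and 339 ± 3.25 CPM, and Mir181a-1 and Mir181a-2 at 1444 ± 548 and 126 ± 1.82 CPM (SD, n = 2 each).

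Other miRNAs of vessels and of fibrosis give the scale. Of 14 vessel miRNAs listed, 13 were measured and all 13 reached 1 CPM in both libraries. The highest were Mir126a of endothelium, at 48756 ± 1345 CPM, Mir17, at 28125 ± 62.05 CPM, and Mir143 of smooth muscle, at 26816 ± 3111 CPM (SD, n = 2 each). Mir23b stood below 4 of the 13, and 0 of the 13 passed a 1.5-fold difference between the pools, against 15.9% of all 264 genes with enough reads. Of 12 miRNAs tied to TGF-beta and fibrosis, 10 reached 1 CPM in both libraries, and by counted reads Mir23a exceeded all 12. Mir21a, known from injured tissue, led them at 6719 ± 33.3 CPM, followed by Mir214 at 4129 ± 523 CPM and Mir200b at 3934 ± 828 CPM. Of the 9 with enough reads, 1 passed 1.5-fold, Mir192, which was lower in replicate 2 at a log2 ratio of -0.69. Counts of 0 of 13 and 1 of 9 are too small to set either list apart from that 15.9%. Mir29b-1 and Mir29b-2, the fibrosis miRNAs below 1 CPM, share a mature sequence, as do Mir199a-1 and Mir199a-2. Mir92-1 of the vessel list shares one with Mir92-2. Full-length reads of those sequences fit both loci, so the counts of these genes can be too low.

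The tissue label was set beside marker miRNAs. The 11 listed for kidney compartments all had means between 3934 CPM (Mir200b) and 153990 CPM (Mir10a). Unlisted genes of the same families were lower, such as Mir200a at 725 CPM, Mir141 at 518 CPM and Mir30b at 90.8 CPM. The range of the 11 thus does not hold for their families and is no test of the label. The listed markers of other tissues ran from 0 CPM for the neural Mir124a-1, a gene with identical copies, to 1460.1 CPM for the endocrine Mir375. They summed to 0.317% and 0.373% of reads, and their part in the members' levels was not tested. In bulk tissue, fewer cells with a miRNA and less of it per cell cannot be told apart.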

How the data were processed

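The files hold raw read counts per miRNA gene, which the authors deposited for each strand (the gene's own and the opposite one) and for both summed. Per the deposited notes, reads were aligned to mm10 and counted on GENCODE M4. Which aligner and counter made them is not given in the sources used. CPM are own-strand counts over the library's total in gene lines. Left out of it were lines for unmapped reads (17.7% of the first and 19.7% of the second library), for reads with several matching loci (27.1% and 26.6%) and for reads outside genes (2.57% and 4.05%). Names and positions came from GENCODE M21, matched by identifier without its version for 1894 of 1973 genes; for 79 of these the version differed. Mature and hairpin sequences came from RefSeq (GRCm38.p6).

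Means and SDs are over 2 libraries. Intervals are 95% exact (Clopper-Pearson) binomial intervals, and a count of 0 allows up to 3 counts. PCR duplicates are not known, so these cover counting error only. With 1 group no contrast could be fitted and no p-value is given; the ratio step was tested on simulated data. edgeR 4.0.16 (TMM) and DESeq2 1.42.0 size factors in R 4.3.3 were alternative scalings. Other steps used Python 3.11.15, numpy 2.4.6, pandas 2.3.3, scipy 1.17.1 and matplotlib 3.10.9.

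Besides the members, the genes named are those overlapping them, their neighbours in rank, genes sharing a seed (also shifted by 1), the 4 highest pairs of identical copies, the 3 highest genes of the vessel and fibrosis lists, and paralogous clusters. Mir192, the miR-29 clusters, the unlisted relatives of the kidney markers and the marker genes at the ends of their ranges were picked after their values were seen. Mir18a of the vessel list is Mir18 in the annotation. The members and lists were chosen with earlier results of these data known.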

Additional observations from a re-analysis of the deposited data

Results flagged for a closer look

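Reads opposite to Mir3074-1 numbered 514 in replicate 1 and 363 in replicate 2. They lie outside the own-strand counts used for levels and above the 3 counts that 0 reads would leave room for. The series has no control sample. They made up 48.9% and 48.3% of all reads of that gene, and by number it stood at rank 11 among the 82 genes with any opposite-strand read.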

How the results depend on the processing

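Of 68 values recomputed under another setting with both libraries, 41 moved by less than the spread between pools or the counting interval, and 27 moved by more. Another 30 values left out a replicate; with 2 libraries these lie within 1 SD of the mean by construction, so they show nothing about stability. The 27 held no ratio between paralogs and no share within a cluster, which are taken within a library and so do not depend on its scaling. Without Mir10a in the total, Mir23b rose to 25485 CPM, Mir23a to 12239 CPM, Mir27b to 1941 CPM, Mir27a to 189 CPM and Mir24-2 to 173 CPM, and the cluster sums to 2.74% (chromosome 13) and 1.26% (chromosome 8). With counts of both strands, Mir23a stood at 10120.3 CPM, Mir27b at 1605 CPM and the chromosome 8 sum at 1.04%. Mir27b stood at 1643.5 CPM with TMM and 1633 CPM with DESeq2 size factors.

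The log2 ratio of replicate 2 over replicate 1 became -0.10 for Mir23a, 0.018 for Mir27a, -0.014 for Mir23b and -0.13 for Mir27b with TMM. With DESeq2 size factors it became -0.13 for Mir23a, -0.014 for Mir27a, -0.058 for Mir24-2, -0.046 for Mir23b and -0.16 for Mir27b. Without Mir10a it became -0.018 for Mir23a, 0.069 for Mir23b and -0.047 for Mir27b. The share of genes past the fold was 3.41% at 2-fold, 22.2% when genes with mean counts down to 10 were taken in, and 9.62% with a minimum of 1000. The number of members past the fold was 0 at 2-fold and with either scaling. Taking the reads opposite to Mir3074-1 for Mir24-1, an alternative added after the data were seen, gave a chromosome 13 sum of 2.33%, a log2 ratio of the cluster sums of 1.13, and a log2 ratio to Mir24-2 of -1.16 ± 0.18 (SD, n = 2). Neither count in the ratio to Mir24-2 can hold full-length reads of miR-24-3p.

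No paired analysis of groups was possible because the labels give 1 group; ratios between genes were taken within each library. Mir27a and Mir24-2 had from 887 to 1129 reads a library, so counting error limits their ratio.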
